A study of Mus musculus with 4 samples.

Results

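Basophils are rare granulocytes of the blood that carry the high-affinity receptor for IgE on their surface. On activation they release histamine and lipid mediators from granules and lipid bodies, and they make cytokines, of which interleukin (IL)-4 is the best known. They share much of this machinery, histamine included, with mast cells, which mature in tissue and are rich in tryptases and chymases. In the TNF-Tg library of the present data, 57 of 3391 cells (1.68%, 95% exact Clopper-Pearson interval 1.28 to 2.17) were gated as basophils, and in the WT library 6 of 5488 cells (0.109%, 0.0401 to 0.238), or 63 of 8879 cells in both. A cell was gated when it held fewer than 20 UMIs of Dcn (a stromal proteoglycan) per 10000, at least 2 UMIs of Mcpt8 (a basophil granule protease) plus Cd200r3 (a basophil and mast cell surface receptor), and at most 2 UMIs of the mast cell proteases Cma1, Mcpt4 and Tpsb2. A UMI is a molecular tag that marks 1 captured mRNA molecule. The cells were thus chosen by the UMIs of these 6 genes, whose levels describe the choice and are no finding.

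The study sequenced single cells of the popliteal lymphatic vessels and the adjacent saphenous vein of the mouse hind limb, in 4 libraries of 3 pooled mice each and 10837 cells in all. The WT mice were C57BL6 males of 9 months by the label. The TNF-Tg mice were males of the same labelled age and background, and carried a human TNF transgene that gives chronic inflammatory-erosive arthritis. Both suspensions were sorted as live cells with high scatter, a gate meant for smooth muscle, so shares of cells are shares of that gate and not of the vessel wall. The other 2 libraries were tdTomato+ cells of Cspg4-Cre;tdTomato mice, sorted for a reporter that Cspg4-Cre activates in smooth muscle and other mural cells, and 3 of 1504 and 1 of 454 of their cells met the rule. The WT library held 68773605 UMIs (median 12660 per cell) and the TNF-Tg library 37557627 (median 10605). WT and TNF-Tg were 1 library each. Genotype and library therefore cannot be told apart, no p-value was computed, and every interval given covers counting error only. The 4 libraries shared at most 5 cell barcodes in any pair, and no gated cell was among them.

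The gated cells were small in RNA content. Their depth ran from 1425 to 14980 UMIs with a median of 4136, against a median of 10331 in the other 2099 leukocytes of the library (cells under the Dcn limit in clusters with at least 100 CPM of Ptprc, the gene of CD45, where CPM is UMIs per 1000000), and they held a median of 1392 detected genes. Mcpt8 plus Cd200r3 came to between 2 and 110 UMIs per cell with a median of 8. Just inside the rule, 7 TNF-Tg cells held exactly 2 of these UMIs, and just outside it, 9 TNF-Tg and 18 WT cells held 1. The WT cells held 2, 2, 2, 2, 3 and 103 UMIs. The mast gene limit kept out 5 TNF-Tg and 11 WT cells, of which 3 and 2 held 3 to 9 mast gene UMIs. RNA of these mast genes was found well beyond mast cells. In WT, 57.6% of cells held at least 1 UMI of them, and in TNF-Tg 26.4%. The shares in stromal cells (Dcn at or above the limit and no Ptprc UMI) were close to these, at 26.1% in TNF-Tg, so the limit acted on different backgrounds in the 2 libraries. With a mast gene limit of 0 the gate held 46 TNF-Tg cells and 1 WT cell, and with a limit of 9, chosen after seeing the data, 60 and 8.

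**Figure D1:**
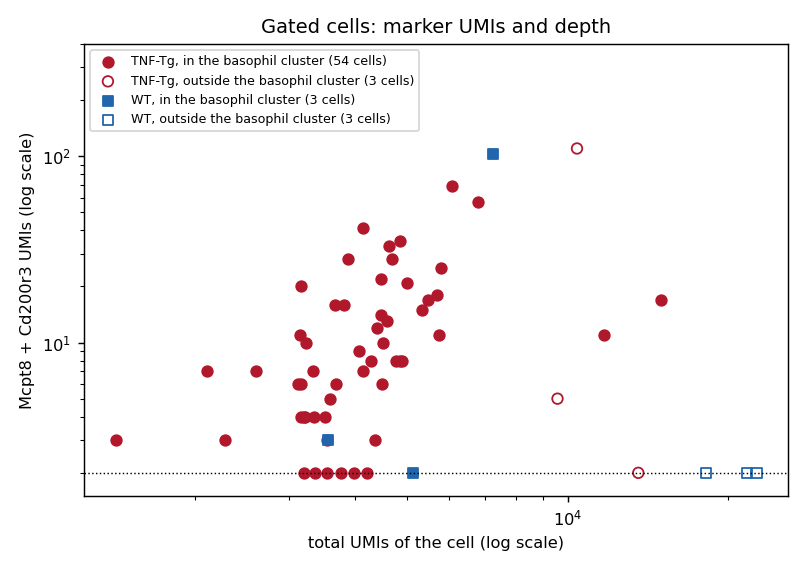
Each symbol is 1 gated cell, with its total UMIs on the horizontal axis and its Mcpt8 plus Cd200r3 UMIs on the vertical axis, both on log scales; the dotted line is the minimum of 2. Filled symbols lie in the basophil cluster of their library (54 of 57 TNF-Tg circles, 3 of 6 WT squares), and the 3 open WT squares sit on the minimum at 18147 to 22573 total UMIs.

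To check the label, the cells of each library were clustered without the 6 genes of the rule. In TNF-Tg, 54 of the 57 gated cells (94.7%) fell in a single cluster of 63 cells, at each of the 3 clustering resolutions tried. The genes leading that cluster by fold over all other cells included Ccl3, Ccl4, Ms4a2, Fcer1a, Cyp11a1 and Gata2. Of 5 basophil and mast cell genes outside the rule (Fcer1a, Gata2, Ms4a2, Cpa3 and Hdc), 42 of 57 cells held all 5 and 56 held at least 3. The remaining TNF-Tg cell held none of them and lay in a dendritic cell-like cluster. Another 2 gated cells lay in a small cluster led by Cpa3, Mcpt4, Tpsb2 and Cma1 (the mast gene cluster), and 1 of these held 110 Mcpt8, 104 Cpa3 and 21 Kit UMIs. These 3 cells stand apart, so results that rest on them are also given for the 54 cells alone, a choice made after seeing the data. The 54 were not uniform. Csf1r, the gene of the Csf1 receptor, was found in only 2 of them, the deepest, at 11719 and 14980 UMIs. The first held 9 Csf1r, 3 Ccl2 and 3 Il1b UMIs. The second held 4 Csf1r and 6 Ccl2 UMIs, and the highest Ccl6 and Ccl9 counts of the 54 (177 and 49). In WT, 3 of the 6 gated cells lay in a cluster of 7 cells that also held at least 3 basophil markers among its leading genes, and at the coarsest resolution these cells merged into a cluster of 166. The other 3 WT cells held 2 Cd200r3 UMIs each and no UMI of Fcer1a, Ms4a2 or Gata2, so the label did not hold for them. Predicted doublets numbered 3 among the 57 gated cells, 2 in the TNF-Tg cluster of 63 cells and 74 in the TNF-Tg library.

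Markers of other cell types were then read in the gated cells, list by list. Of the eosinophil markers, Prg2, Epx, Ear6 and Il5ra had 0 UMIs in 271046 UMIs, which allows up to 13.6 CPM. The summed level of the 6 eosinophil markers was 92.2 CPM against 1.65 in the other leukocytes. In the gated cells Ccr3, a chemokine receptor shared with basophils, gave 16 of the 25 UMIs and Siglecf, a sialic acid-binding receptor of eosinophils, the other 9. The mast cell genes Tpsab1, Mrgprb1 and Mrgprb2 were at 0, and 21 of 22 Kit UMIs lay in the single cell named above. The 9 mast cell markers, less the 3 of the rule, summed to 1188 against 52.9 CPM, of which Cpa3, a carboxypeptidase of both cell types, gave 299 of 322 UMIs. The 8 neutrophil markers summed to 616 CPM against 10231 in the other leukocytes, with Slpi giving 95 of 167 UMIs and Cxcr2, a receptor of neutrophil attractants, 57, and the 12 macrophage markers to 1627 against 8189.6 CPM, with Pf4 giving 220 of 441 and 8 members holding at least 10 UMIs. The 10 T cell markers had 7 members at 0, among them Cd3e and Cd3g, and Lat, an adaptor also used by the IgE receptor, gave 38 of 41 UMIs. The 12 dendritic cell markers summed to 612 against 1126 CPM, with Xcr1 and Clec9a at 0 and Napsa giving 107 of 166 UMIs. The 7 of 8 inflammatory monocyte markers that the matrix held summed to 2343 against 3048 CPM, with Plac8 giving 495 of 635 UMIs and 1 UMI of Ly6c2, and the 8 patrolling monocyte markers to 284 against 669.9 CPM, with Spn giving 32 of 77 and Cd300e at 0. The 9 NK cell or ILC2 markers summed to 273 against 162 CPM, with Nkg7 giving 39 of 74 UMIs and Ncr1, Klrb1c and Gata3 at 0. The 6 B cell markers summed to 48.0 against 163 CPM, with Ighm giving 10 of 13 UMIs and Cd79a at 0. Of the 6 platelet markers, Ppbp, Gp9, Gp1bb and Treml1 were at 0, and Pf4 gave 220 of 262 UMIs (967 against 2051 CPM). Of the 6 endothelial markers only Pecam1 was found, with 21 UMIs, or 77.5 against 8.32 CPM. The 6 erythroid markers, with Hbb-bs giving 8 of 12 UMIs and Alas2 at 0, summed to 44.3 against 429.9 CPM, and the 8 stromal markers, less Dcn, to 111 against 95.6 CPM, with Pi16 giving 18 of 30 UMIs and Lum at 0. Ptprc was measured at 166 CPM against 560.4 in the other leukocytes, and 25 of 57 cells held a UMI.

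The level of every gene was then set against the other leukocytes of the TNF-Tg library as UMIs summed over the cells and scaled to 1000000. Over the 4526 genes with a mean of at least 25 CPM in the 2 groups, 295 were at least 4-fold higher in the gated cells (6.52%) and 354 at least 4-fold lower (7.82%), with a median log2 ratio of -0.20. A gene that reached 25 CPM only through the gated cells was bound to be higher there, so the counts below describe the lists and support nothing further. Since fewer cells of a type and less RNA per cell cannot be told apart in sums, cells with a UMI are given beside the levels.

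The high-affinity IgE receptor has an IgE-binding alpha chain (Fcer1a), a signal-amplifying beta chain (Ms4a2) and a gamma chain (Fcer1g) that many myeloid receptors share. Fcer1a stood at 793 CPM in the gated cells (691 to 907, exact Poisson interval) and 3.38 in the other leukocytes, with a UMI in 52 of 57 cells. Ms4a2 stood at 878 and 1.83 CPM, with a UMI in 55 of 57 cells. Fcer1g stood at 3523 and 3651 CPM, a ratio of 0.965 (0.904 to 1.03, exact conditional binomial interval). So the alpha and beta chains separated the gated cells from the pooled other leukocytes by 235-fold and 480.4-fold, while the shared gamma chain was level. The mast gene cluster, part of that pool, was at 1386 CPM for Fcer1a and 577 CPM for Ms4a2. Neither chain thus set the gated cells apart from that cluster. In the 16-member list of the receptor and its signalling genes, 14 passed the filter, of which 4 were at least 4-fold higher (Fcer1a, Ms4a2, Lat and Lat2) and 1 lower (Plcg2), with a median log2 ratio of 0.56. Lat2, the second adaptor of the pathway, was at 745 against 97.0 CPM, and the kinases Lyn and Syk at 181 against 493 and 59.0 against 119 CPM.

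GATA2, a zinc-finger factor required for basophils and mast cells, binds sites with the core letters GATA. Gata2 was at 723 CPM in the gated cells, with a UMI in 52 of 57, and at 1.96 CPM in the other leukocytes. Among these, the mast gene cluster was at 1001 CPM. The letters GATAA, searched on both strands (TTATC on the printed strand, with no overlap between them), are in the 250 bases upstream of the start of 22.6% of 32851 mouse promoters in RefSeq (GRCm38.p6). The 12 basophil markers, Mcpt8 and Cd200r3 of the rule included, all matched that table and have 14 such windows, since Gata2 and Cyp11a1 have a pair each, and 6 of the 14 windows, each of another gene, hold the letters. The promoters of 4 of these 6 genes, of which Cd200r3 was used by the rule, are shown with these letters in capitals, as the strand of the gene, 5′ to 3′, to place the letters relative to the start. They are Ms4a2 (chr19:11623720-11623969, minus strand), Fcer1a (chr1:173227230-173227479, minus strand), Cd200r3 (chr16:44943428-44943677, plus strand) and Cpa3 (chr3:20242182-20242431, minus strand).
Ms4a2: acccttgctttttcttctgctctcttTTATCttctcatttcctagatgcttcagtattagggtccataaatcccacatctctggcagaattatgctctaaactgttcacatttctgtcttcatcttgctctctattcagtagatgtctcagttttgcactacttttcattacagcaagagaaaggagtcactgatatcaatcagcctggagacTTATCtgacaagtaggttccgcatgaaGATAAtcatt
Fcer1a: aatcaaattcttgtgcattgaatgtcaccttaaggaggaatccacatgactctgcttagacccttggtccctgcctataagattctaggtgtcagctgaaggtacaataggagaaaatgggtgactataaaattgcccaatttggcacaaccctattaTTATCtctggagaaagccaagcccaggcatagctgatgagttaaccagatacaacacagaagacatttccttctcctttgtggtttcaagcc
Cd200r3: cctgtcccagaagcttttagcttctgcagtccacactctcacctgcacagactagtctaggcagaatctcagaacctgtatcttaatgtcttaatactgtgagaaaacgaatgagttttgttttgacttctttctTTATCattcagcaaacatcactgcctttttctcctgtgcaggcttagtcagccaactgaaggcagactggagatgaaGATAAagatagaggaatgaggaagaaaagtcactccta
Cpa3: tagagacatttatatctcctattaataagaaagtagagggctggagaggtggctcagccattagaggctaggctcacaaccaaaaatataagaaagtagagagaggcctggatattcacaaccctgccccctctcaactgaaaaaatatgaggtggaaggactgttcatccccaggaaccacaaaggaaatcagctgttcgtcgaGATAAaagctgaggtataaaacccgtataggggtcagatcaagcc
Counting back from the last base before the start as -1, the match nearest to it begins at -10 in Ms4a2, -38 in Cd200r3, -45 in Cpa3 and -92 in Fcer1a. Ms4a2 holds 3 matches, and 0.712% of all promoters hold 3 or more, whereas the windows of Mcpt8, Gata2, Il3ra, Itga2, Hdc and Cyp11a1 hold none. A match is a description of these letters, not a site of binding.

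Among granule proteases and mediators, 12 of 16 members passed the filter and 9 were at least 4-fold higher (in the 54 cells alone Gzmb was not), with none at least 4-fold lower and a median log2 ratio of 4.14. Hdc, which makes histamine, was at 1384 against 38.9 CPM with a UMI in 56 of 57 cells. Neutrophil-like cells were at 904 CPM and held 647 leukocyte Hdc UMIs, against 375 in the gated cells, so Hdc was shared with them. Cyp11a1, the side-chain cleavage enzyme of steroid synthesis, was at 793 against 2.79 CPM, with the mast gene cluster at 847 CPM. Slc18a2, which loads histamine into granules, was at 162 against 1.37 CPM. These 3 genes were thus spread over most or many of the cells. Prss34, the tryptase of basophils, was not: its 157 UMIs lay in 15 cells, the 5 highest cells held 89.8% of them, and 1 cell held 58. Gzmb, a serine protease, had 88 UMIs in 3 cells, of which 1 lay in the 54 cells of the basophil cluster (4.21 CPM there). The level of Cpa3 was 1103 CPM over all 57 cells and 745 over the 54. Of the leukotriene genes, Alox5ap was detected in 57 of 57 cells and stood at 2616 against 1194 CPM, with neutrophil-like cells at 1732, and Alox5 at 129 against 36.6 CPM. The granule membrane protein Cd63 was at 1734 against 214 CPM, but also at 1146 CPM in stromal cells of the library.

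Mast cells are the nearest comparison. The mast gate (at least 10 UMIs of Cma1, Mcpt4 and Tpsb2 and the same Dcn limit) held 25 TNF-Tg cells, of which 16 lay in the mast gene cluster and 9 in clusters of other cells, so the 16 are used here, a choice made after seeing the data. They were shallow, with a median of 896.5 UMIs and 16237 UMIs in all. Fcer1a, Ms4a2, Gata2 and Hdc were at 2217, 924, 1232 and 3880.0 CPM in these mast-gate cells. Cyp11a1, Slc18a2 and Csf2rb2 were at 1355, 924 and 308 CPM there. These 7 genes were thus found in both gates. Cpa3 was at 21494 CPM and Kit, the receptor of stem cell factor, at 3449 CPM in them, whereas Kit had 0 UMIs in the 54 basophils of the cluster. Il1rl1, the IL-33 receptor, was at 3203 CPM in them and 111 in the gated basophils. Il4 was at 431 CPM in them, from 7 UMIs. In the other direction Alox5ap had 1 UMI in the mast-gate cells. Ccl3, Il6, Osm and Hgf had 0 UMIs there, and Ccl4 had 3 UMIs, or 185 CPM. A floor of 3 UMIs is 185 CPM at that depth and lies below the exact upper limit of 0 UMIs. For Il6, at 262 CPM (205 to 330.4) in the gated cells, a difference from these 16 cells was therefore not detectable. Il3ra, the alpha chain of the IL-3 receptor, also had 0 UMIs there, but a difference from the 111 CPM of the gated cells was not detectable at this depth, and 99 WT mast-gate cells of the corresponding cluster were at 107 CPM. Over all 25 cells of the mast gate Ccl3 was at 19.6 CPM, Ccl4 at 108, Osm at 39.2 and Hgf at 19.6 CPM, and Il6 at 0 UMIs. In the larger set of 99 WT mast-gate cells of the corresponding cluster Ccl3 and Il6 were also at 0 UMIs of 140781, and Il4 was at 291 CPM.

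**Figure D2:**
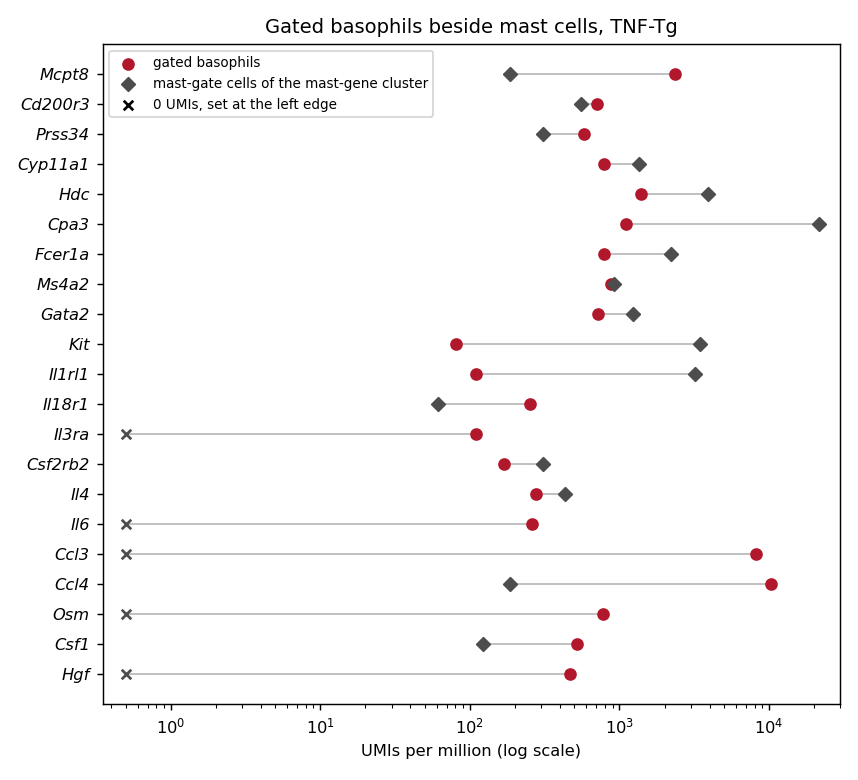
Levels of 21 genes in the 57 gated basophils (red circles) and the 16 mast-gate cells of the mast gene cluster (grey diamonds) of TNF-Tg, in UMIs per 1000000 on a log axis; a cross is a gene with 0 UMIs, set at the left edge. Mcpt8 and Cd200r3 chose the basophils. Ms4a2, Gata2 and Il4 lie near each other in the pairs, Cpa3, Kit and Il1rl1 lie toward the mast-gate cells, and Ccl3, Osm and Il6 toward the basophils. For Il6 the cross stands for 0 UMIs, and a difference was not detectable at the depth of the 16 cells.

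IL-4, the cytokine most tied to basophils, was measured at 277 CPM (218 to 347) in the gated cells and 2.28 CPM in the other leukocytes. This ratio was 121, and 39.9 as a mean over cells of each cell's CPM. Il4 UMIs were in 39 of 57 cells, with at most 4 per cell. After every cell was thinned at random to 1500 UMIs, 33.9% of 56 gated cells held an Il4 UMI (68.4% of 57 unthinned), against 0.546% of the other leukocytes and 0.0947% of stromal cells. The gated cells were 2.64% of leukocytes and 1.22% of their UMIs, and they held 75 of 125 Il4 UMIs (60.0%, 50.9 to 68.7). The 9 ungated cells of the basophil cluster held a further 10. The mast gene cluster was the other class with a like level, at 269 CPM from 7 UMIs, and the cluster led by Ctla2a and Gata3, which also held Il1rl1 and Il7r, was at 37.0 CPM. Il13 had 5 UMIs in 3 gated cells, each of which also held Il4, and 0 in the other leukocytes. At 5 UMIs the Il13 share of 100% has a lower bound of 47.8%. Il3, Il5, Il9, Il10, Ifng, Csf2, Areg and Vegfa had 0 UMIs in the gated cells.

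Il6, whose product drives acute-phase and B cell responses, was at 262 CPM (205 to 330.4) against 1.37 CPM in the other leukocytes, with UMIs in 34 of 57 cells and at most 7 per cell. Its ratio of 191 became 382 when the ungated cells of the basophil cluster were left out of the other leukocytes. As a mean over cells of each cell's CPM the Il6 ratio was 96.2. The next highest leukocyte class for Il6 was at 10.6 CPM, and stromal cells were at 18.7 CPM. Il4 and Il6 were found together in 23 cells, Il4 alone in 16, Il6 alone in 11 and neither in 7. Osm, oncostatin M of the IL-6 family, was at 771 CPM in the gated cells and 141 CPM in neutrophil-like cells, the next highest class. Hgf, the hepatocyte growth factor, was at 469 CPM and 27.6 CPM in patrolling monocyte-like cells. Csf1, the growth factor of macrophages, was at 524 CPM against 4.43 CPM in the other leukocytes and 259 CPM in stromal cells. The Csf1 ratio to the other leukocytes was 118, and 49.6 as a mean over cells. Osm, Hgf and Csf1 were carried by 48, 42 and 42 of the 57 cells, with medians of 3, 2 and 2 UMIs and maxima of 18, 11 and 19, so these levels did not rest on a few cells. Tnf, the gene of the endogenous mouse cytokine, differed in this: its 23 UMIs lay in 6 cells and 1 cell held 47.8% of them. The ratio of Tnf to the other leukocytes was 5.02 (3.14 to 7.65), and neutrophil-like cells, at 85.2 CPM, were level with the gated cells. Il1b was at 14.8 CPM against 402 CPM, with 4 UMIs in 2 cells, and Tgfb1 at 181 against 207 CPM. In the list of 27 cytokines and growth factors, 8 passed the filter, 6 were at least 4-fold higher (Il4, Il6, Tnf, Osm, Csf1 and Hgf; Tnf was 2.78-fold higher as a mean over cells, under 4-fold) and 1 lower (Il1b), 14 had 0 UMIs, and the median log2 ratio of the 8 was 5.55.

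The chemokines Ccl3 and Ccl4 recruit monocytes, lymphocytes and granulocytes. They lie side by side on chromosome 11, Ccl3 at chr11:83647844-83649355 (minus strand) and Ccl4 at chr11:83662584-83664683 (plus strand) in GRCm38, the build of mm10. Ccl3 was measured at 8176 CPM (7839 to 8523) and Ccl4 at 10282 CPM (9904 to 10671), against 46.1 and 65.3 CPM in the other leukocytes. These ratios were 177 and 158, and 103 and 85.5 as a mean over cells of each cell's CPM. Each chemokine was found in 55 of 57 cells, Ccl3 at a median of 38 and a maximum of 88 UMIs and Ccl4 at 50 and 125, and 54 cells held both. Ccl3 and Ccl4 were thus a property of nearly every gated cell. The next highest class was the NK cell or ILC2-like class for both, at 267 and 1015 CPM, followed by neutrophil-like cells at 182 and 367 CPM. Gated basophils held 2216 of 3225 leukocyte UMIs of Ccl3 (68.7%) and 2787 of 4215 of Ccl4 (66.1%). The 9 ungated cells of the same cluster held another 258 and 311. Stromal cells were at 0.965 and 1.86 CPM.

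Other chemokines did not follow this pattern. Ccl6 and Ccl9, macrophage inflammatory protein-related chemokines, were at 6589 and 1192 CPM in the gated cells, and macrophage-like cells were near them at 5231 and 1243 CPM. Cxcl2, a neutrophil attractant, had 93 UMIs in 10 cells, 31 of them in 1 cell, and stood at 343 against 357 CPM. The monocyte attractants Ccl2, Ccl7 and Ccl12 had 11, 2 and 1 UMIs and were 15.3-fold (8.56 to 30.7), 49.5-fold (13.7 to 408) and 27.7-fold (4.96 to 1094) lower than in the other leukocytes. Of the 11 Ccl2 UMIs, 3 and 6 lay in the 2 deepest cells of the 54, which held Csf1r. Ccl5 had 0 UMIs against 239 CPM and was at least 21.6-fold lower, taking 3 UMIs as the floor. Of 19 listed chemokines, 11 passed the filter, 2 were at least 4-fold higher and 6 at least 4-fold lower (Ccl2, Ccl5, Ccl7, Ccl8, Ccl12 and Ccl24), with a median log2 ratio of -3.71. Across the 40 cytokines and chemokines with at least 10 leukocyte UMIs, 5 had more than 50% of those UMIs in the gated cells (Il6, Ccl3, Ccl4, Il4 and Csf1), and Hgf and Osm had 48.5% and 26.3%. For 25 of the 40 the share was below the 1.22% of leukocyte UMIs that the gated cells held, and 14 of these had 0 UMIs. Of the 14, Ccl5 and Il18 had an upper limit of the share below that value, and for the others, with few UMIs in all leukocytes, a lower share was not detectable at this depth.

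**Figure D3:**
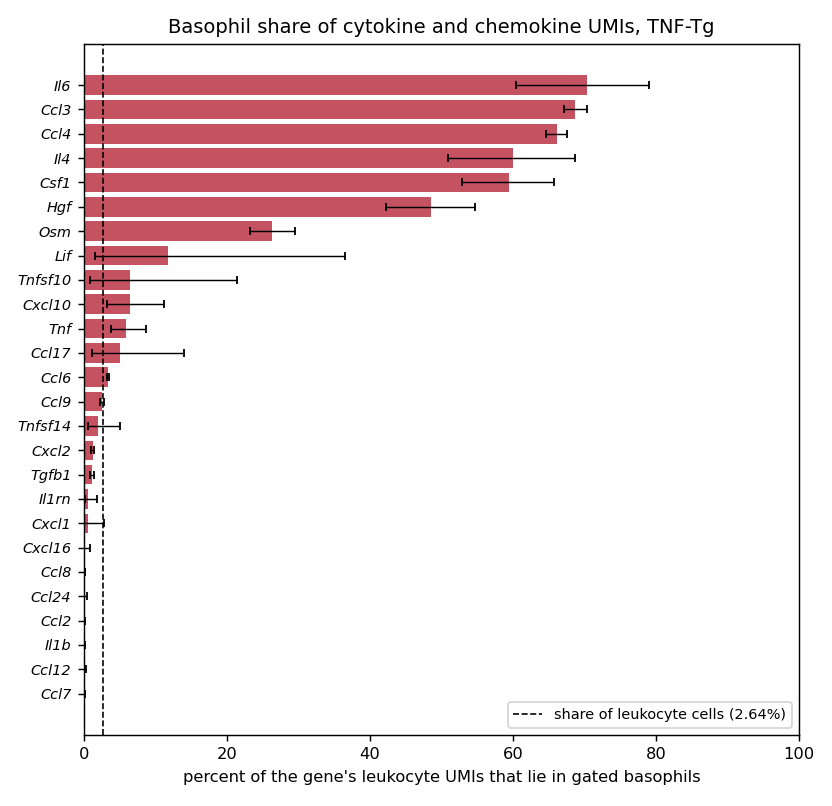
Percent of the leukocyte UMIs of each cytokine or chemokine that lay in the 57 gated basophils of TNF-Tg, for the genes with at least 10 leukocyte UMIs and at least 1 in a gated cell; bars are the share, error bars the exact 95% interval of counting error, and the dashed line is the share of leukocytes that were gated. Il6, Ccl3, Ccl4, Il4, Csf1, Hgf and Osm stand far to the right of the line, and most others lie at or left of it.

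**Figure D4:**
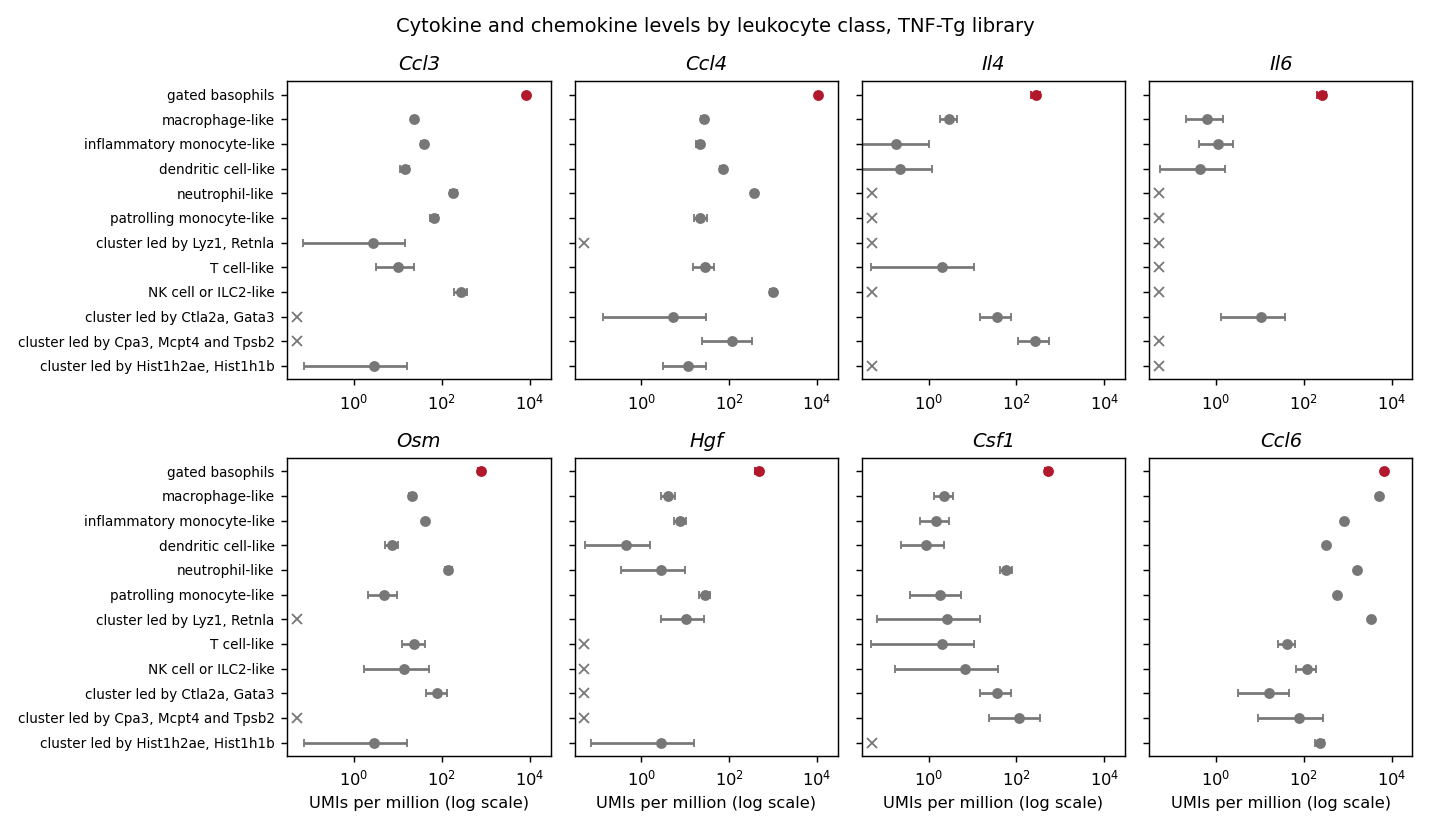
Levels of 8 genes in UMIs per 1000000 (log axis) in the gated basophils (red) and in each leukocyte class of TNF-Tg with at least 10 cells (grey), with exact Poisson intervals; a cross marks 0 UMIs. Basophils are at the far right for Ccl3, Ccl4, Il6, Osm, Hgf and Csf1, the mast gene cluster reaches the same Il4 level with a wide interval, and macrophage-like cells come close for Ccl6.

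**Figure D5:**
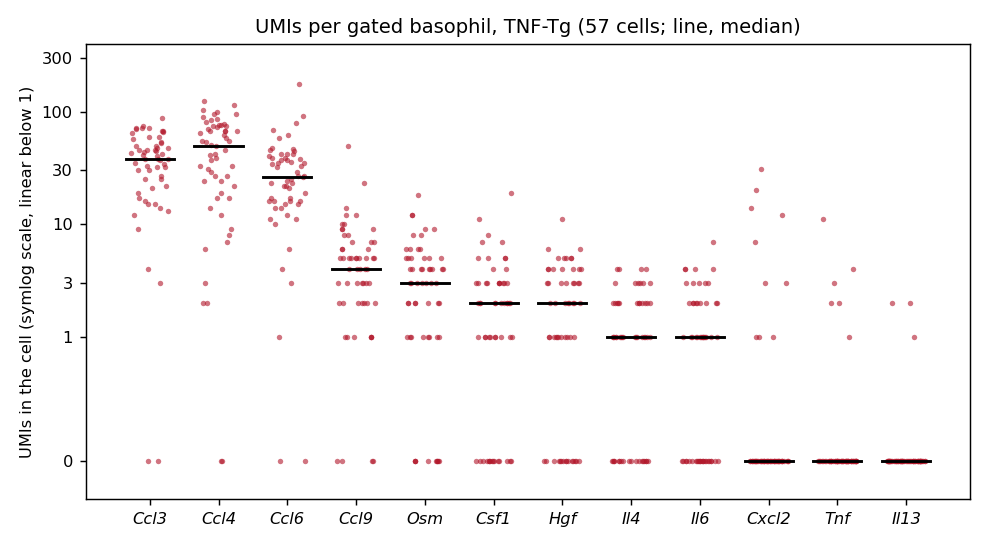
UMIs of 12 cytokines and chemokines in each of the 57 gated TNF-Tg cells, 1 point per cell, with a black line at the median, on a symmetric log axis that is linear below 1. Ccl3 and Ccl4 are high in nearly every cell, Il4 and Il6 have a median of 1, and Cxcl2, Tnf and Il13 have a median of 0 with a few positive cells.

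Cytokine receptors of basophils include those for IL-3, IL-18, IL-33 and thymic stromal lymphopoietin. The IL-3 receptor chains Il3ra and Csf2rb2 were at 111 and 169.7 CPM against 26.5 and 21.8, with the mast gene cluster at 192 CPM for Csf2rb2, and the shared beta chain Csf2rb at 472 against 108 CPM. Both chains of the IL-18 receptor, Il18r1 and Il18rap, had 68 UMIs each, or 251 CPM, against 5.99 and 9.46 CPM in the other leukocytes, and 1 and 0 UMIs in the 16 mast-gate cells. T cell-like cells were at 167 CPM for Il18r1 and NK cell or ILC2-like cells at 192 for Il18rap. Crlf2, a chain of the receptor for thymic stromal lymphopoietin, was at 203 against 145 CPM, and its partner Il7r at 173 against 25.2, with T cell-like cells at 592 CPM for Il7r. The TNF receptor genes were low, with 2 UMIs of Tnfrsf1a and 7 of Tnfrsf1b in the gated cells, or 7.38 and 25.8 CPM against 115 and 108. In all, 19 of 25 receptors passed the filter, 8 were at least 4-fold higher and 5 lower, with a median log2 ratio of -0.36. Of the 8, Kit was at 0 in the 54 cells alone and the other 7 stayed at least 4-fold higher. For migration and adhesion, 22 of 24 members passed the filter, 7 were at least 4-fold higher, with a median log2 ratio of 1.08. Itga2 and Itga2b, integrin alpha chains, were at 81.2 and 155 CPM against 1.19 and 0.777, but Itga2 was also at 75.4 CPM in NK cell or ILC2-like cells and 231 in the mast gene cluster, and Itga2b at 115 in the latter from 3 UMIs. Ccr3 was at 59.0 against 0.548, and the tetraspanin Cd9 at 1350.3 against 76.8 CPM, with stromal cells at 638 CPM. Ccr2 and Cxcr2, receptors of monocyte and neutrophil attractants, were at 225 against 684 and 210.3 against 38.8 CPM, with neutrophil-like cells at 1045 CPM for Cxcr2. Of 15 receptors for prostaglandins, histamine, leukotrienes and nucleotides 6 passed the filter, 1 was at least 4-fold higher and 1 (Cysltr1) lower, with a median log2 ratio of 0.92. The higher one was Ptger3, a receptor of prostaglandin E2, at 55.3 against 0.685 CPM, with 15 UMIs in 13 cells.

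Of 18 inhibitory and activating surface receptors 15 passed the filter, 3 were at least 4-fold higher and 2 lower (Pira2 and Ceacam1), with a median log2 ratio of -0.21. Cd69, an early activation antigen, was at 738 against 14.0 CPM with UMIs in 37 of 57 cells, Lilr4b at 1140.0 against 94.7 CPM, and Cd200r1, an inhibitory receptor, at 184 against 29.1 CPM. The highest other classes were the cluster led by Ctla2a and Gata3 for Cd69 and Cd200r1, at 285 and 127 CPM, and neutrophil-like cells for Lilr4b, at 769 CPM. Immediate-early genes, which respond to stimulation and to tissue digestion alike, had 14 of 17 members past the filter, with 5 at least 4-fold higher (Fosb, Jun, Egr1, Ier2 and Ier3), 1 (Atf3) lower and a median log2 ratio of 1.66. Ier3 was at 3018 against 216 CPM, and Egr1, Jun and Ier2 at 6.88-fold, 4.93-fold and 6.50-fold the other leukocytes, while the mast gene cluster was at 2849 CPM for Egr1 against 1029 CPM in the gated cells. Thus genes that digestion can raise were higher in the same cells as Ccl3 and Ccl4, and its part in those levels was not tested. Among NF-kB feedback genes 10 of 14 passed the filter and 1 was at least 4-fold higher, Tnfaip3 at 159 against 27.6 CPM, with the cluster led by Ctla2a and Gata3 at the same level (158 CPM) and a median log2 ratio of -0.43. Nfkbia, the inhibitor that NF-kB induces, was at 1402 against 515 CPM. Of 12 interferon-stimulated genes, 11 of them in the matrix, 6 passed the filter, none was at least 4-fold higher and 1 (Ifi27l2a) was lower, with a median log2 ratio of -0.57.

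Lineage transcription factors had 15 of 23 members past the filter, 4 were at least 4-fold higher (Gata2, Cebpa, Ikzf2 and Tal1) and 1 (Irf8) was lower, with a median log2 ratio of 1.00. Cebpa, a myeloid factor, was at 309.9 against 39.8 CPM, and had 0 UMIs in the 16 mast-gate cells and 3 in the 99 of WT. Gata1, the relative of Gata2 in mast cells and eosinophils, had 4 UMIs in 4 gated cells. Of 12 proliferation genes 8 had 0 UMIs and 1 (not called) passed the filter. In the list of MHC class II presentation 7 of 10 members passed the filter and 5 were at least 4-fold lower, with a median log2 ratio of -2.44. All 57 cells held 199 Cd74 and 102 H2-Aa UMIs, but 173 and 95 of them lay in the single cell of the dendritic cell-like cluster, and the 54 cells of the basophil cluster held 26 and 7. Over the 54 cells Cd74 and H2-Aa were at 0.0233 and 0.0169 of the level in the other leukocytes.

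Genes were also ranked without a list, by the ratio of their level in the gated cells to the highest of the other leukocyte classes, among genes with at least 30 UMIs and a UMI in at least 25% of the cells, leaving out the 6 genes of the rule. The 15 highest included Ccl3, Il6, Hgf and Ccl4 beside genes that the lists did not hold. Alox15, a lipoxygenase that oxygenates arachidonic acid, had 36 UMIs in 24 cells (133 CPM) and 3 UMIs in the other leukocytes, which came from the ungated cells of the cluster. Defb40, a beta-defensin gene, was at 380.0 CPM against 0.548, with 103 UMIs in 18 cells and 31 in the highest. Id1, an inhibitor of DNA binding, was at 587 against 14.5 CPM, and Cdh1, E-cadherin, at 159 against 3.38 CPM. Igfbp7 was at 144 against 4.98 CPM, but at 1436 CPM in stromal cells. Coq8b, a kinase-like protein of coenzyme Q synthesis, and 5 genes without an established name (E330020D12Rik, 1110028F11Rik, Gm12840, D830025C05Rik and Gm50394) made up the rest. At the other end, the 10 genes with the lowest ratio among those at 200 CPM or more in the other leukocytes included Ccl5, Wfdc21, Iglc2, S100a9, S100a8, Retnlg, Ly6c2, Pla2g7 and Clec4a2. S100a8 and S100a9, the calgranulins of neutrophils, had 3 UMIs each in the gated cells, against 4299 and 4983 CPM in the other leukocytes. Iglc2, an immunoglobulin light chain constant gene that led part of the dendritic cell-like class, had 0 UMIs and was at least 39.5-fold lower, on a floor of 3 UMIs over the gated cells. These transcripts, abundant in the library, were thus nearly absent from the gated cells.

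The WT library held too few of these cells for more than values side by side. Its basophil cluster had 7 cells with 2389 to 7258 UMIs, 31570 in all, of which 3 met the rule. The 4 others held 0 to 2 UMIs of Mcpt8 plus Cd200r3, and 2 of them held 4 and 7 mast gene UMIs. Each of the 7 cells held Fcer1a, Ms4a2, Gata2, Hdc, Csf1 and Ccl3. Ccl3 ranged from 12 to 80 UMIs per WT cell with a median of 43, and from 3 to 88 with a median of 40.5 in the 54 gated TNF-Tg cells of the cluster. The sets are unlike, since 4 of the 7 WT cells were ungated and the 9 ungated TNF-Tg cells of the cluster are not in the 54. As CPM, Ccl3 was at 9534 in WT (8488 to 10675) and 9225 in TNF-Tg, and Ccl4 at 7761 (6819 to 8796) and 11372.5. Il4 was at 285 CPM in WT (130.4 to 541) and 303 in TNF-Tg, Il6 at 348 (174 to 623) and 278, and Osm at 665 (412 to 1017) and 880.0. The per-cell ranges of these genes overlapped between the libraries, so these 5 genes were read in the WT cells as well. Tnf, Il13, Cxcl2 and Il1b had 0 UMIs in the 7 WT cells, which allows up to 117 CPM. Csf1 was at 1330.4 CPM in WT (959 to 1798) and 589 in TNF-Tg. Prss34 had 0 UMIs in the 7 WT cells, and 94 of their 97 Mcpt8 UMIs lay in 1 cell. Differences between WT and TNF-Tg in number or level were not tested.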

How the data were processed

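The deposited matrices hold raw UMI counts per gene and cell, made by the authors from 10x Chromium 3′ reads aligned to mm10. The submitters' processing notes name Cell Ranger 3.1 and 3.1.0 and Seurat 4.0.3, whereas the matrix headers of WT and TNF-Tg give 6.0.1. The cells gated, the gene lists and the named genes were chosen with earlier results of these data known. No filter on cell quality was applied. Clusters (scanpy 1.11.5, leidenalg 0.10.2; 2000 variable genes without the 6 genes of the rule, 30 components, 15 neighbours, resolution 1, seed 42) took a cell type name when their 50 leading genes by fold held 3 or more markers of it. A name was given only where no other type held as many markers. Other clusters are called by their leading genes. Exceptions were the mast gene cluster, with 7 markers, and the cluster led by Ctla2a and Gata3, with 3. The WT cluster of the mast-gate cells, with 7, was another. These reached the minimum, but another type held as many markers, so the rule left them without a cell type name. They are also called by their leading genes. Levels are UMI counts summed over cells, per 1000000. Intervals are exact, at 95%, and cover counting error only. UMIs were thinned to 1500 per cell, which left out 1 gated cell. Doublets were predicted with scanpy's scrublet and kept. Named were members of the 14 lists with at least 10 UMIs in the gated cells, the 15 genes with the highest ratio to any other class and the 10 with the lowest to the other leukocytes, and, beside these, members at or near 0 that were chosen after their values were seen. The fold calculation was tested on simulated counts. RefSeq promoters (GRCm38.p6) gave the sequences, and TMM factors came from edgeR 4.0.16 (R 4.3.3). Some members of these lists are not reported here.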

Additional observations from a re-analysis of the deposited data

How the results depend on the processing

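With a minimum of 1 UMI of Mcpt8 plus Cd200r3 the WT library held 24 gated cells (0.437%), and with 5 it held 1 (0.0182%) while TNF-Tg held 41 (1.21%). With no mast gene UMI allowed, WT held 1 cell (0.0182%). In a separate setting, the main gate restricted to the basophil cluster held 3 WT cells. The share of leukocyte Il4 UMIs in the gated cells was 48.8% at the minimum of 5 and 50.4% with no mast gene UMI. Past 4-fold were 448 genes higher and 646 lower at a mean of at least 10 CPM, and 102 and 104 at 100 CPM. Cells with an Il4 UMI were 68.4% unthinned and 66.0% thinned to 3000 UMIs. The other 74 values of these results moved by less than their counting interval or, for counts, less than 1.5 times. No cytokine ratio past 4-fold changed sign on the log scale under the alternatives. Of the 167 cytokine ratios under the alternatives, 40 moved outside the counting interval of the main setting. Across them, the ratio to the other leukocytes ran from 103 to 268 for Ccl3, 85.5 to 222 for Ccl4, 39.9 to 168 for Il4, 96.2 to 444 for Il6, 49.6 to 139 for Csf1, 55.2 to 87.4 for Hgf, 24.7 to 32.9 for Osm and 2.78 to 6.05 for Tnf, which was under 4-fold only as the mean over cells (2.78). For Il1b it ran from 0.00988 (mean over cells) to 0.240 (minimum of 1 UMI) around 0.0367. The ratio ran from 2.53 to 3.68 for Ccl6, from 1.82 to 2.60 for Ccl9 and from 0.588 to 1.23 for Cxcl2, which was thus on either side of level. TMM scaling shifted all log2 ratios by 0.06. No paired analysis was possible because each condition was 1 library. The restriction to the basophil cluster, the mast gene limit of 9, the other leukocytes without the ungated cells of that cluster and the mast-gate cells of the mast gene cluster were chosen after seeing the data. The floor of 3 UMIs for genes at 0 was 11.1 CPM in the gated cells and 185 CPM in the 16 mast-gate cells. The exact upper limit of 0 UMIs is higher, at 13.6 CPM in the gated cells.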
